A study of Danio rerio with 6 samples.

Results

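The mitosis and G2/M genes were taken by the start of their symbols: cyclins A and B, Aurora and Polo-like kinases, spindle checkpoint and kinetochore genes, the chromosomal passenger complex, the kinesins, and several markers of dividing cells such as mki67 and top2a. The name rule matched 74 of 11218 rows of the deposited table. By role, 48 of these encode mitotic proteins, 8 belong to the kif1, kif3 and kif5 families of transport kinesins that neurons use, and 18 are other kinesins or genes that only share the start of the name. cdk1 and plk1 were not analysed here. The measurements came from cells sorted from the heads of zebrafish embryos (Danio rerio) aged 48 hours post fertilization. One genotype was mutant for scarb2a, the counterpart of the mammalian lysosomal protein LIMP-2, and the other was wild type from the same families. Cells of both genotypes were sorted alive for the reporter that the series' design text writes as TgBAC(scar2ba:KalTA4; UAS-mKate2), with 5000 cells from a pool of 50 heads per library. A reporter of this kind marks the cells in which the promoter has been active, and the labels do not name the mutant allele. The series' title places the study in radial glia progenitors. There were 3 libraries per genotype, wild type 1, 3 and 4 and mutant 1, 2 and 3, which the labels call biological replicates.

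A dividing cell copies its DNA in S phase and then, in G2, builds up the proteins that will divide the chromosomes. Cyclin A and B partners drive entry into mitosis, kinetochores attach chromosomes to the spindle, the spindle checkpoint holds back the anaphase-promoting complex (APC/C) until every chromosome is attached, and the APC/C then marks cyclin B for destruction. Most of these transcripts are made in G2 and M under the MuvB, B-Myb and FoxM1 regulators and are low in resting cells, so that their level in a tissue is widely used as a sign of how many cells divide. In the embryonic head, radial glia and other neural progenitors are the main dividing cells of the brain, and neurons leave the cycle.

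The libraries held between 1560238 and 2086990 counts, recovered from normalized values. scarb2a itself was near the detection limit, with 7 counts over the 3 wild type and 12 over the 3 mutant libraries (2.43 ± 0.971 and 3.8 ± 2.52 normalized counts, SD over 3 libraries each), and so gave no check of the genotype or of the sort. Neuronal and radial glial markers were detected in every library, 19 and 19 genes with none at 0 in either genotype. The summed level of the neuronal markers was 13646 to 14699 normalized counts in wild type and 11275 to 11773 in mutants, and that of the radial glial and progenitor markers 8998 to 9652 and 7040 to 7823. Of the 19 radial glial and progenitor genes, 8 were called lower, beside 8.5% of all genes tested. Only 2, slc1a3a and cx43, were called higher, beside 10.9% of all genes. her15.1 and id1 held the largest shares of the sum. Mesenchymal and cartilage markers, 15 genes, summed to 1949 to 2401 and 4836 to 5556, and 7 epidermal markers to 3115 to 4852 and 6703 to 7109. Lens and retinal markers, 14 genes, summed to 3049 to 3709 and 665 to 840. The 7 markers of endothelium and blood summed to 23.1 to 50.6 and 109.1 to 1280.2. Of these 7, 2 were at 0 in all wild type libraries. The sum of 1280.2, in mutant replicate 1, was mostly globin, with hbae3 at 935.6 and hbbe1.1 at 245.3. In mutant replicate 2 these globin genes had 11.9 and 1.0, and in mutant replicate 3 160.5 and 3.6. Among the endothelial genes, fli1a and pecam1 were called higher, and kdrl and egfl7 were not called. The summed marker levels thus moved with genotype, and their part in the results that follow was not tested. Fewer cells of a type and less RNA per cell cannot be told apart in such bulk samples.

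No mitotic gene was called different between the genotypes. Of the 48 mitotic genes, 45 had a mean of at least 5 normalized counts and were tested, and 0 passed as higher or lower in the mutant by limma at an adjusted p of 0.05 (Benjamini-Hochberg over 9647 genes). At the same threshold 19.4% of all genes tested were called, 10.9% higher and 8.5% lower. edgeR and DESeq2 on the recovered counts also called none of the 45, although DESeq2 gave no adjusted p for cenpo_1. Over all genes edgeR called 1069 higher and 810 lower, and DESeq2 622 and 409. At an unadjusted p under 0.05 limma counted 9 of the 45, 8 higher and 1 lower, against 31.2% of all genes. At that level edgeR counted 8 of the 45 and DESeq2 0, against 3002 and 1955 of all 9647 genes. The median log2 difference of the 45 was 0.07, beside -0.01 over all genes, and 27 differences were positive. When the libraries were instead given equal totals, the median of all genes moved by -0.11 and that of the mitotic genes was -0.04, 0.08 above the median of all genes. Every mutant library lay above every wild type library for 6 of the 45 genes and below for 1, beside 17.9% and 16.7% of all genes.

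**Figure D1:**
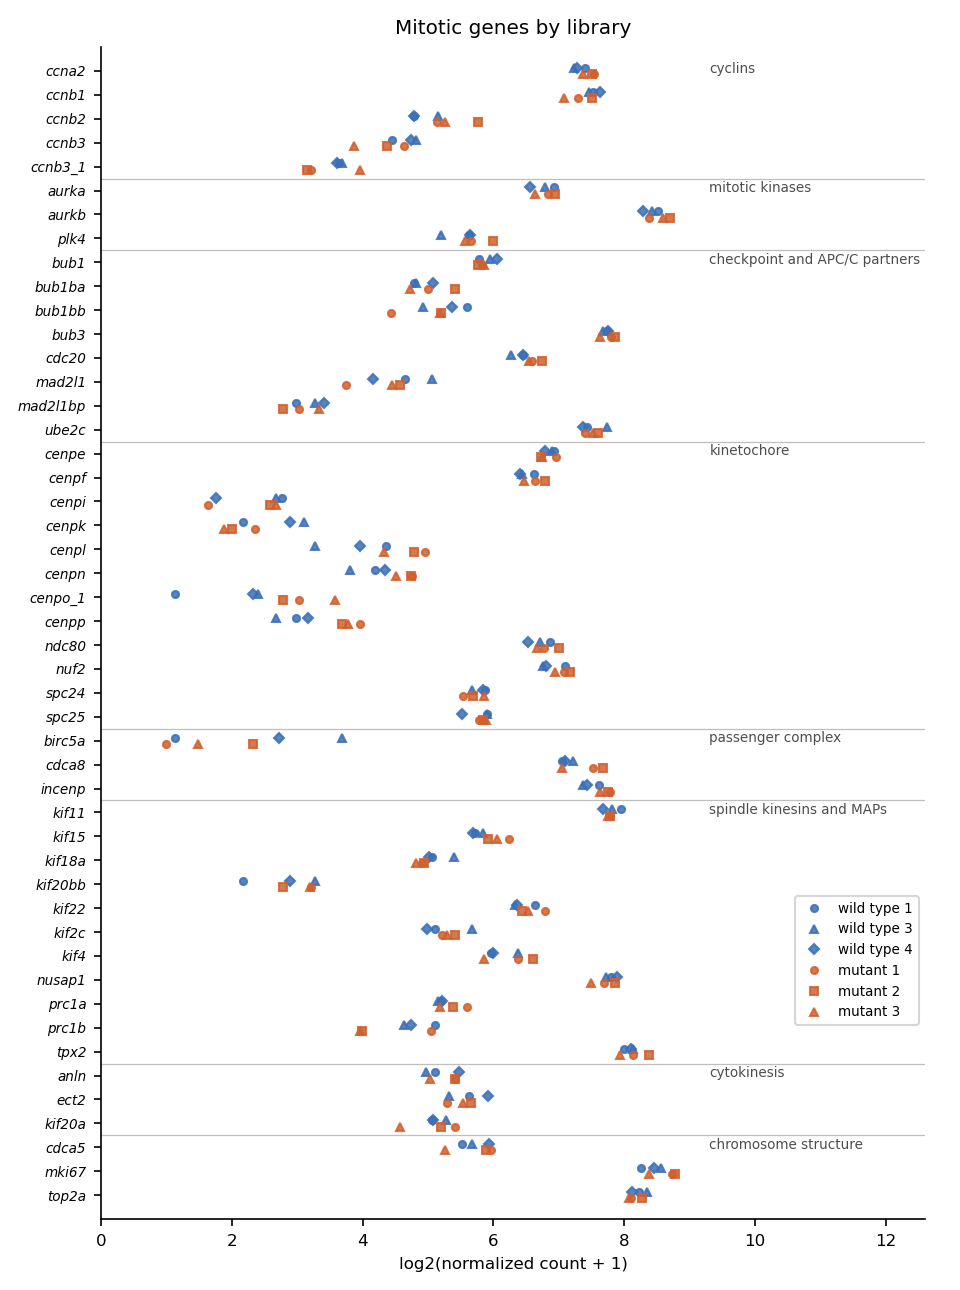
Normalized counts of the 48 mitotic genes in each of the 6 libraries, as log2(value + 1) on the horizontal axis, ordered by role. Wild type libraries are blue and mutant libraries orange, with 1 marker shape per replicate number, and the genotypes overlap for most genes.

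The intervals show how large a difference these libraries leave room for. For 39 of the 45 genes the 95% interval of the log2 difference lay within -1 and 1, beside 61.15% of all genes tested. These limits are a 2-fold change of value + 1 either way. For 29 of the 45 the interval lay within a 1.5-fold change of value + 1, beside 2867 of 9647 genes. These shares were not matched for level, and 25 of the 45 but 3349 of all 9647 genes had a mean of at least 50. At low levels the same limits allow a somewhat larger fold change of the value itself. The 25 genes with a mean of at least 50 normalized counts all had intervals within 2-fold, with limits a median of 0.26 to either side, and their differences ran from -0.25 to 0.32. Of all genes at that level 29.3% were called. The 20 genes under 50 had wider intervals, with limits a median of 0.51 to either side, and for 14 of them the interval lay within -1 and 1.

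The values of the 3 mutant libraries within a gene followed an order that the genotype does not give. Mutant replicate 2 was the highest mutant library for 25 of the 45 genes and mutant replicate 3 the lowest for 27. Over all genes tested these shares were 33.7% and 33.0%, and over the 34 replication genes described below 41.2% and 50%. Without mutant replicate 3 the median difference of the 45 mitotic genes was 0.17. In that fit 3 of the 45 were called higher, cdca8, cenpl and mki67, beside 791 of all 9647 genes. Without mutant replicate 2 the median was 0.002 and none was called, beside 779 higher and 650 lower over all genes. cenpl was also called higher without wild type replicate 1, beside 978 of all genes. prc1b was called lower without mutant replicate 1, beside 671 of all genes.

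Cyclins. ccna2, which encodes cyclin A2 of S phase and G2, had 168.5, 149.4 and 153.4 normalized counts in wild type and 184.2, 181.3 and 165.0 in mutants. Only mutant replicate 3 lay below the highest wild type library, and the log2 difference of 0.17 ± 0.104 (SE) did not pass (limma adjusted p = 0.289). ccnb1, cyclin B1, which with its kinase partner starts mitosis, had 182.4, 175.4 and 197.6 in wild type and 156.3, 180.3 and 134.2 in mutants. Here mutant replicates 1 and 3 were below every wild type library and mutant replicate 2 was among them. The difference was -0.25, with a 95% interval of -0.49 to -0.004 and an adjusted p of 0.153 in limma. With equal totals the ccnb1 difference was -0.36 and passed (limma adjusted p = 0.0350, the smallest over the alternatives), beside 1306 of all 9647 genes called lower. ccnb2, the second B-type cyclin, had 26.5, 34.6 and 26.5 in wild type and 34.2, 53.5 and 37.2 in mutants, a difference of 0.48 (0.04 to 0.92, limma adjusted p = 0.122). The signs of ccnb1 and ccnb2 thus differed, and neither passed. ccnb3 is divided over 2 rows, so that each is uncertain. Summed, they reached 36.1 ± 3.43 in wild type libraries and 29.3 ± 2.43 in mutant ones (SD, n = 3; exact permutation test, two-sided, p = 0.1, the smallest that 3 against 3 libraries allow).

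Mitotic kinases. aurkb, the kinase of the chromosomal passenger complex, had 363.6, 341.0 and 311.7 normalized counts in wild type and 331.2, 413.1 and 384.4 in mutants. The groups overlapped and the difference was 0.15 (-0.05 to 0.35, limma adjusted p = 0.322). aurka, which acts at centrosomes and the spindle, had 107.5 ± 13.5 and 111.1 ± 11.6 (SD, n = 3), a difference of 0.05. plk4, which controls the duplication of centrioles, had 44.4 ± 7.54 and 52.8 ± 8.52, a difference of 0.25 (-0.13 to 0.62).

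Spindle checkpoint and APC/C partners. All 8 genes of this role were tested, 3 differences were positive and 5 negative, and they lay between -0.37 and 0.23. bub3, a checkpoint protein with further roles outside mitosis, had 211.2, 202.4 and 215.3 normalized counts in wild type and 220.4, 229.8 and 196.7 in mutants. The mutant libraries lay on both sides of the wild type ones, and the difference of 0.04 had an interval of -0.17 to 0.24. cdc20, the APC/C activator that the checkpoint inhibits, was the 1 gene of the 8 whose groups did not overlap, with 86.6, 75.8 and 86.8 in wild type and 95.2, 106.0 and 92.5 in mutants. Over all genes the groups did not overlap for 34.6%, and the cdc20 difference of 0.23 did not pass (limma adjusted p = 0.223). ube2c, the enzyme that hands ubiquitin to APC/C substrates, had 182.3 ± 26.1 and 181.0 ± 12.8 (SD, n = 3). The kinase genes bub1, bub1ba and bub1bb differed by -0.11, 0.15 and -0.35, mad2l1, the checkpoint effector, by -0.37, and mad2l1bp, which turns the checkpoint off, by -0.17, none of which passed.

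Kinetochore. The kinetochore has an outer part that grips microtubules and an inner part, the constitutive centromere-associated network, that sits on the centromere. The groups overlapped for all 4 subunits of the outer NDC80 complex, and over all genes the groups did not overlap for 34.6%. nuf2 had 135.0, 107.2 and 110.8 normalized counts in wild type and 134.5, 142.6 and 121.5 in mutants, a difference of 0.18 (-0.08 to 0.43, limma adjusted p = 0.348) with overlapping groups. The differences of ndc80, spc24 and spc25 were 0.11, -0.10 and 0.06. cenpe, a kinesin motor of the outer kinetochore, differed by -0.06 and cenpf by 0.15.

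The 4 inner kinetochore genes that were tested all had positive differences at low levels, and none passed. They are set together here after their values were seen, so their count is a description. cenpl had 19.6, 8.7 and 14.5 normalized counts in wild type and 30.0, 26.7 and 19.0 in mutants, a difference of 0.82 (0.20 to 1.45), and only mutant replicate 3 lay within the wild type range. Its adjusted p of 0.0609 in limma was the smallest of the 45 genes, and over the libraries left out in turn it ran from 0.0223 to 0.254. cenpn, whose protein pairs with that of cenpl, had 17.3, 13 and 19.3 in wild type and 25.9, 25.8 and 21.8 in mutants (0.55, limma adjusted p = 0.137). cenpp had 6.9, 5.4 and 8.0 in wild type and 14.5, 11.9 and 12.7 in mutants (0.86, adjusted p = 0.0905), and cenpo_1 1.2, 4.3 and 4.0 against 7.2, 5.9 and 10.9 (1.18, adjusted p = 0.112). The symbol of cenpo_1 is numbered like those of genes divided over several rows, and another row was not analysed here, so its value is uncertain. Every mutant library lay above every wild type library for cenpn, cenpp and cenpo_1, beside 17.9% of all genes. cenpi and cenpk, of the same network, fell under the filter on low values, with 13 and 18 counts over the wild type and 13 and 10 over the mutant libraries. Their log2 differences were -0.105 and -0.641 (exact permutation test, two-sided, p = 0.6 and 0.2). At such counts it cannot be told whether they shared the pattern.

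Chromosomal passenger complex. incenp, the scaffold of the complex, had 195.1, 164.6 and 171.1 normalized counts in wild type and 218.4, 214.0 and 195.8 in mutants. Every mutant library lay above every wild type one, the closest by less than 1 normalized count, and the difference was 0.24 (0.03 to 0.46, limma adjusted p = 0.108). cdca8, which encodes borealin, had 131.6, 147.2 and 134.9 in wild type and 183.2, 203.1 and 130.6 in mutants. Mutant replicate 3 was the lowest of the 6 libraries and the other two mutant libraries the highest. The cdca8 difference of 0.30 (adjusted p = 0.143) was 0.48 without mutant replicate 3 (adjusted p = 0.0112). birc5a, which encodes survivin, had 19 counts over the wild type and 7 over the mutant libraries and was too low to test with the others (exact permutation test, two-sided, p = 0.3).

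**Figure D2:**
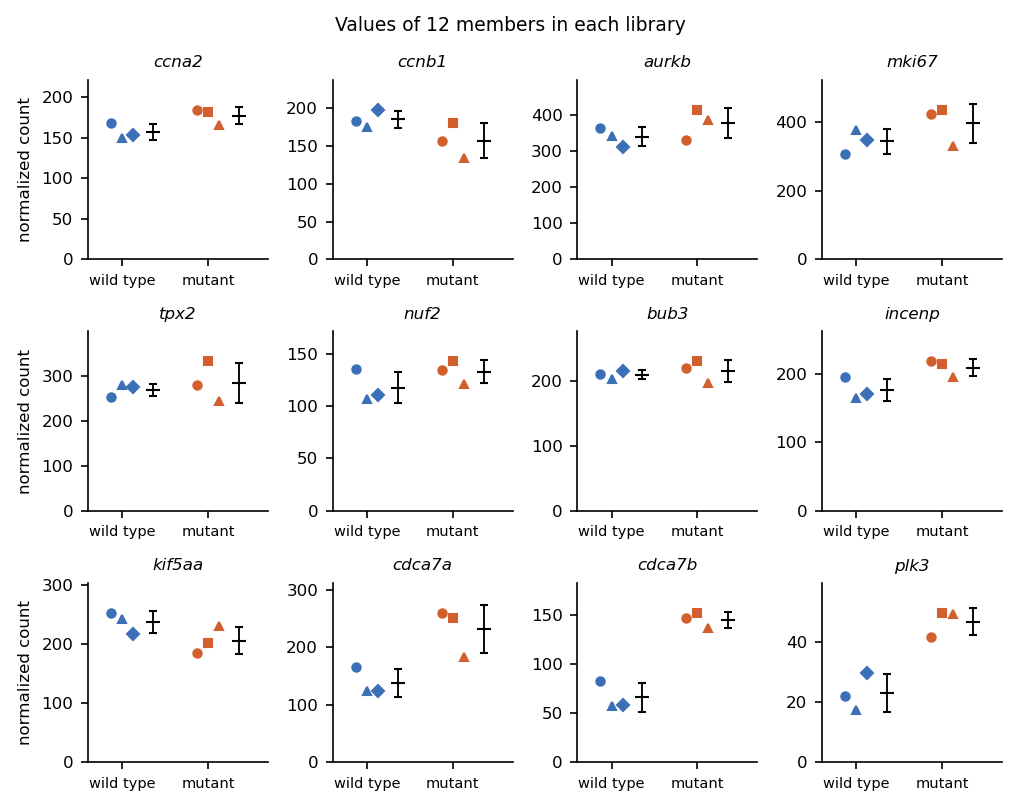
Normalized counts of 12 genes in each library, with the mean and SD of 3 libraries in black. Wild type is blue and mutant orange, marker shapes are replicate numbers (circle 1, square 2, triangle 3, diamond 4), and each vertical axis starts at 0. Values of cdca7b and plk3 do not overlap between genotypes, while those of tpx2, mki67 and bub3 do.

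Spindle kinesins and microtubule proteins. Of 11 genes tested, 7 differences were positive and 4 negative, between -0.50 and 0.32. tpx2, which activates Aurora A on the spindle, had 253.9, 279.3 and 274.7 normalized counts in wild type and 279.4, 331.9 and 243.0 in mutants. The mutant libraries spanned the wild type ones, with a difference of 0.07 (-0.15 to 0.29). kif11, the motor that pushes spindle poles apart, had 224.7 ± 21.6 and 217.4 ± 2.18 (SD, n = 3), and nusap1, a spindle bundling protein, 222.0 ± 13.3 and 205.4 ± 25.7. kif15, a motor that backs up kif11, had 51.9, 56.3 and 50.6 in wild type and 74.5, 59.4 and 65.3 in mutants. Its groups did not overlap, and the difference of 0.32 did not pass (limma adjusted p = 0.158). kif18a, which dampens chromosome movements, was the 1 mitotic gene with every mutant library below every wild type one, 32.3, 41.1 and 31.3 against 29.0, 29.7 and 27.2, a difference of -0.27 (adjusted p = 0.394). The paralogues prc1a and prc1b, which bundle microtubules of the midzone, differed by 0.20 and -0.50. prc1b had 33.5, 23.8 and 25.7 in wild type and 32.1, 14.9 and 14.5 in mutants, so that mutant replicate 1 stood apart from the other mutant libraries, and without it the difference was -0.85 (adjusted p = 0.0418). The remaining differences were 0.29 for kif20bb, 0.17 for kif4, 0.15 for kif22 and 0.06 for kif2c.

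Cytokinesis and chromosome structure. The genes of the contractile ring and its signals, ect2, anln and kif20a, differed by -0.13, 0.10 and -0.08. ect2, the exchange factor that starts the ring, had 48.5, 39.0 and 59.4 normalized counts in wild type and 38.3, 49.5 and 45.3 in mutants, with 95% limits of the difference of -0.51 and 0.26. mki67, the source of the Ki-67 antigen that coats mitotic chromosomes, had 305.9, 376.8 and 347.8 in wild type and 422.2, 434.9 and 330.0 in mutants. Here mutant replicate 3 fell among the wild type libraries and the other two mutant libraries lay above them, and the difference of 0.20 (-0.03 to 0.42, limma adjusted p = 0.220) was 0.32 without that library (adjusted p = 0.0444). top2a, the topoisomerase that untangles sister chromatids, had 297.8, 325.9 and 277.1 in wild type and 273.2, 307.1 and 267.5 in mutants, a difference of -0.09 (-0.29 to 0.11). cdca5, which encodes the cohesin protector sororin, differed by -0.01.

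**Figure D3:**
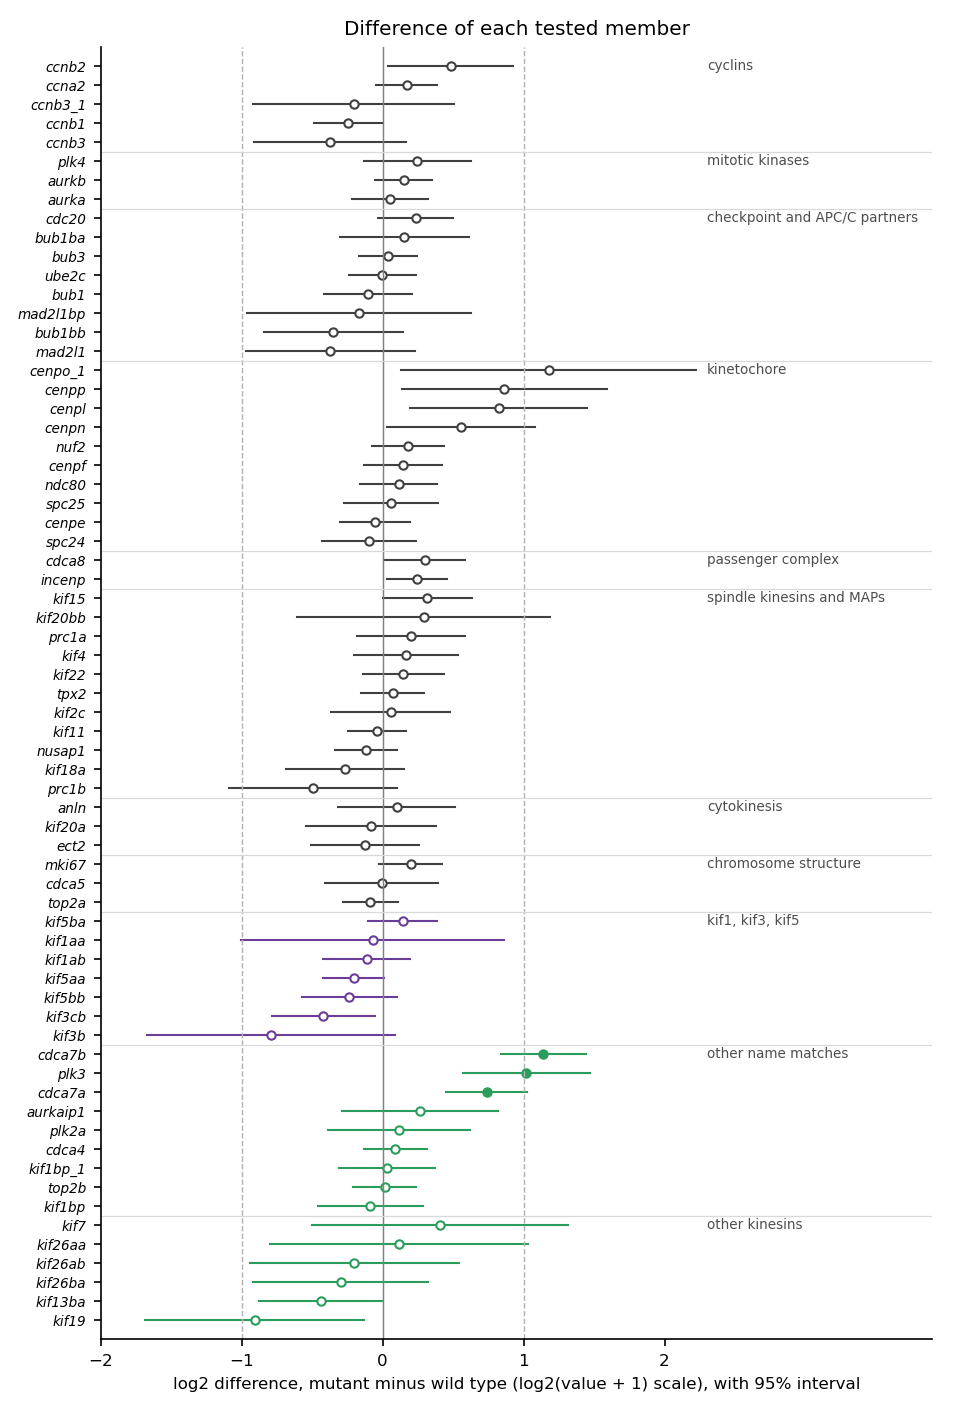
Log2 difference of each of the 67 members tested, mutant minus wild type on the log2(value + 1) scale, with its 95% limma interval, by role. Mitotic genes are grey, kif1, kif3 and kif5 genes purple and other members green. Filled points passed an adjusted p of 0.05, and the dashed lines mark a 2-fold change of value + 1. Only cdca7b, plk3 and cdca7a are filled.

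Transport kinesins of neurons. Of 8 kif1, kif3 and kif5 genes, 7 were tested and none was called by limma, edgeR or DESeq2. Of all 9647 genes limma called 19.4%, edgeR 1069 higher and 810 lower, and DESeq2 622 and 409. At an unadjusted p under 0.05 limma counted 1 of the 7, beside 31.2% of all genes. At that level edgeR and DESeq2 counted 0 of the 7, beside 3002 and 1955 of all genes. The median difference of the 7 kinesins was -0.21, 6 of 7 differences were negative, and no gene's groups stood apart, beside 34.6% of all genes. The median was -0.32 without wild type replicate 1, -0.13 without mutant replicate 1 and -0.12 without mutant replicate 2. kif5aa, a kinesin-1 motor of axons, had 252.8, 242.5 and 216.9 normalized counts in wild type and 185.3, 202.1 and 230.3 in mutants, a difference of -0.21 (-0.43 to 0.01, limma adjusted p = 0.187). kif3cb, a kinesin-2 subunit, had 88.9, 88.8 and 74.7 in wild type and 49.7, 56.5 and 86.1 in mutants, a difference of -0.42 (adjusted p = 0.101). In both genes mutant replicate 3 lay among the wild type libraries and the other two mutant libraries below them. Without mutant replicate 3 the kif3cb difference was -0.65 and passed (limma adjusted p = 0.0109), beside 633 of all 9647 genes called lower. With equal totals kif3cb and kif5aa both passed, at -0.53 and -0.32. That scaling moved the median of all genes by -0.11 and called 1306 genes lower, against 820 in the main fit. kif3b, with 11.0 ± 1.78 and 6.63 ± 4.48 (SD, n = 3), differed by -0.79 and did not pass. kif5ba, kif5bb, kif1ab and kif1aa differed by 0.14, -0.24, -0.11 and -0.07. The neuronal markers, summed above, were lower in the mutant libraries, and 9 of 18 tested passed as lower and none as higher, beside 8.5% and 10.9% of all genes. Their part in the kinesin values was not tested. kif5c was too low to test with the others, with 9 counts over the wild type and 17 over the mutant libraries (exact permutation test, two-sided, p = 0.5).

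Other genes with matching names. The 3 members called in the mutant, all higher, do not encode mitotic machinery, and they were 3 of 15 tested in this remainder (20%), a share close to the 19.4% of all genes called. cdca7b and cdca7a are paralogues of the E2F and MYC target CDCA7, which in other vertebrates acts with the remodeller HELLS in DNA methylation. cdca7b had 83.1, 57.4 and 58.6 normalized counts in wild type and 147.0, 152.6 and 136.9 in mutants, and it rose by 1.14 ± 0.143 (SE; limma adjusted p = 9.76e-06), a 2.19-fold higher mean. cdca7a had 166.2, 123.4 and 124.5 in wild type and 259.8, 251.6 and 183.1 in mutants and rose by 0.74 ± 0.138 (adjusted p = 7.05e-04). All mutant libraries were above all wild type ones in both genes, although mutant replicate 3 again was the lowest mutant library. plk3, a Polo-like kinase of stress responses in mammals, had 21.9, 17.3 and 29.7 in wild type and 41.4, 49.5 and 49.0 in mutants and rose by 1.02 ± 0.215 (adjusted p = 0.00211). Its relative plk2a, at 22.6 ± 5.95 and 24.1 ± 1.55 (SD, n = 3), differed by 0.12. These 3 calls held in edgeR, in DESeq2 and with each library left out in turn, and that of cdca7a was lost in limma without the mean-variance trend (adjusted p = 0.0692).

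Members of this remainder that were not called included top2b, a paralogue of top2a, with 220.5, 263.1 and 289.2 normalized counts in wild type and 251.5, 241.7 and 283.8 in mutants (0.01, -0.21 to 0.24). cdca4, another E2F-linked gene, differed by 0.09, aurkaip1, which encodes a mitochondrial protein, by 0.26, and both rows of kif1bp, a kinesin-binding protein, by -0.09 and 0.03. Among other kinesins, kif13ba had 36.9, 37.9 and 34.5 in wild type and 21.7, 25.8 and 33.5 in mutants, below every wild type library, with a difference of -0.44 (limma adjusted p = 0.156). kif19, a kinesin of ciliary tips, had 26.5, 13 and 25.7 in wild type and 10.3, 5.9 and 19.0 in mutants (-0.91, adjusted p = 0.0970). It passed without wild type replicate 3 or mutant replicate 3 (-1.22 and -1.30), beside 590 and 633 of all 9647 genes called lower. kif7, a regulator of Hedgehog signalling, and kif26aa, kif26ab and kif26ba differed by 0.41, 0.11, -0.20 and -0.30. kif13a, its second row and kif13bb were too low to test with the others, with 3 to 19 counts per genotype. Their log2 differences were -0.723, 0.056 and 1.408. For kif13a and kif13bb, of opposite sign, the exact permutation test (two-sided) gave p = 0.1, the smallest it can reach here.

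G2/M genes outside the name pattern are given beside the members. Of 49 tested, limma called 4 higher and 2 lower (12.2%, against 19.4% of all genes), with a median difference of 0.06. Without mutant replicate 2 this median was -0.02, and without wild type replicate 4 it was 0.10. For spdl1, stag2b, dlgap5, aspm and hmmr a second row of the same symbol was not counted here. With both rows summed their log2 differences were 0.48, -0.53, -0.10, -0.085 and -0.13. fbxo5, which encodes the APC/C inhibitor Emi1, rose from 105.7 ± 1.72 to 146.8 ± 7.59 normalized counts (SD, n = 3; adjusted p = 0.00489). mybl2b, encoding B-Myb, rose from 60.4 ± 6.70 to 91.3 ± 18.2, a call lost without mutant replicate 2 (0.42, adjusted p = 0.0940) and in DESeq2 (adjusted p = 0.0705). kpna2, an importin, rose from 397.2 ± 35.9 to 503.7 ± 42.3, a call lost when mutant replicate 2, or wild type replicate 3 or 4, was left out (adjusted p up to 0.0657) and with equal totals (adjusted p = 0.0531). ncaph2, a condensin II subunit, rose by 0.53 and fzr1b, an APC/C activator of mitotic exit and G1, fell by 0.44 on the log2 scale, and each of these calls was lost with 4 of the 6 libraries left out in turn (adjusted p up to 0.211 and 0.187). Neither passed in edgeR (adjusted p = 0.0560 and 0.0525) or DESeq2 (adjusted p = 0.186 and 0.216). The remaining call, ncaph of condensin I, is uncertain. Its row went from 22.2 ± 6.88 to 3.57 ± 0.551 while a second row of the same symbol went from 31.1 ± 4.41 to 46.8 ± 5.66, and the sum of both was 53.2 ± 11.2 and 50.4 ± 6.21 (SD, n = 3). foxm1, the transcription factor of G2/M genes, had 27.4 ± 5.87 and 36.3 ± 9.43 and did not pass (0.39, adjusted p = 0.271). Of 11 APC/C subunits tested, limma called 1 higher and 1 lower (18.2%, a share close to the 19.4% of all genes). The lower one, anapc15, fell by 0.58 on the log2 scale. Its call was lost with 5 of the 6 libraries left out in turn (adjusted p up to 0.149) and in DESeq2 (adjusted p = 0.162). anapc13 and anapc5 differed by -0.34 and 0.41 and did not pass. cdc26 was called higher in 1 row while a second row went from 33.7 ± 3.2 to 0 in every mutant library, so that the sum, 51.0 ± 9.998 and 41.1 ± 7.50 (SD, n = 3), did not follow the call.

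**Figure D4:**
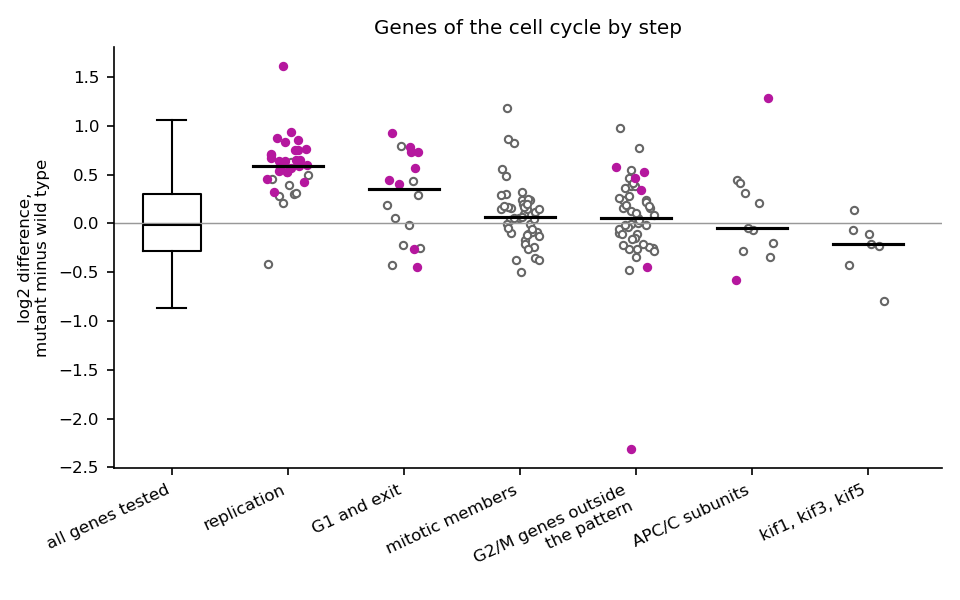
Log2 differences, mutant minus wild type, of genes tested in each step of the cycle. Each circle is a gene, filled where it passed an adjusted p of 0.05 in limma, horizontal bars are medians, and the box of all genes tested spans the quartiles with whiskers at the 5th and 95th percentiles. Of the replication genes 25 of 34 are filled, and of the mitotic genes none.

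Genes of the preceding cycle phases passed in larger numbers. Of 34 replication genes tested, 25 rose and none fell, against 10.9% and 8.5% of all genes, with a median of 0.59, and 9 did not pass. pcna, the replication clamp, mcm4 and mcm2, of the replicative helicase, rose by 0.67, 0.94 and 0.88, and mcm6 by 0.83. Of 18 genes of G1, inhibitors of cyclin-dependent kinases, and cycle exit, 7 rose and 2 fell, beside 10.9% higher and 8.5% lower over all genes. Those that rose included ccne2, cyclin E2 of the G1 to S transition, from 71.8 ± 3.36 to 120.1 ± 6.92 normalized counts (SD, n = 3), ccnd1, cyclin D1 of G1, from 83.4 ± 10.7 to 138.2 ± 5.62, and btg2, an antiproliferative gene, from 1098 ± 53.7 to 1491 ± 11.6. ccng2, an inhibitory cyclin, fell from 199.3 ± 17.5 to 146.0 ± 18.9, a call lost without wild type replicate 3 or mutant replicate 1 (adjusted p up to 0.0547).

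The share of counts was compared without a test. The 48 mitotic genes together took 0.243, 0.252 and 0.252% of all counts in wild type replicates 1, 3 and 4 and 0.240, 0.258 and 0.228% in mutant replicates 1, 2 and 3 (95% exact binomial limits from 0.221 to 0.265%, counting error only). The mutant libraries lay on both sides of the wild type ones. The 36 replication genes took 0.272, 0.269 and 0.282% in wild type and 0.380, 0.395 and 0.383% in mutants, with no overlap. The ratio of the replication sum to the mitotic sum within a library, which does not depend on how libraries are scaled, was 1.12, 1.06 and 1.12 in wild type and 1.59, 1.53 and 1.68 in mutants. The lists were put together with earlier results of these data known, so no p is given for the ratio, and whether the lists differ from each other was not tested.

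**Figure D5:**
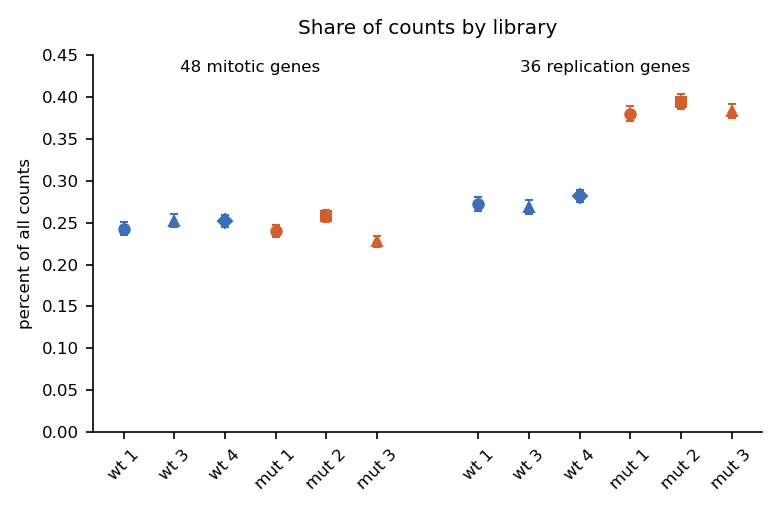
Percent of all counts in each library taken by the 48 mitotic genes (left) and the 36 replication genes (right), with 95% exact binomial intervals. Wild type (wt) libraries are blue and mutant (mut) libraries orange. The mitotic shares lie between 0.228 and 0.258% with the genotypes mixed, and the replication shares of the mutants all lie above those of the wild type.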

How the data were processed

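Messenger RNA was captured on beads and sequenced by a bulk form of MARS-seq, as the labels' protocols state. danRer11 is the build in the submitters' processing notes. The aligner, the counter and how values were normalized: not given in the sources used here. Deposited by the authors was 1 table of normalized counts, treated here as a signal: dividing by 1 factor per library gave whole counts for 67307 of 67308 values (99.9985%, tolerance 0.051). For mutant replicate 2 that value lies so near 1 that low values alone do not show it. Binomial intervals of shares cover counting error only, since the sources do not say whether counts are reads or molecules, while limma's intervals rest on the spread between libraries. No gene was below 6 counts in its highest library. Replicates were not duplicates, since their chi-square over its degrees of freedom was 1.66 to 2.05.

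limma 3.58.1 (R 4.3.3) was fitted to log2(value + 1) with a mean-variance trend for 9647 genes with a mean of at least 5. Genotype was the only term, and the Benjamini-Hochberg adjustment covered all of them, with a threshold of 0.05. The p values measure the spread between pools. Members under the filter were compared by exact permutation. edgeR 4.0.16 and DESeq2 1.42.0 on recovered counts, other scalings, pseudocounts and filters, a replicate block and each library left out were alternatives. The fit was tested on simulated data. Of 269 list entries outside the pattern, 199 matched a row. Entries were matched by exact symbol, so second rows of a symbol were not counted in these lists. cdc16 and chaf1a fell under the filter in the matched row. Their second rows had means of 24.2 and 15.7 normalized counts in wild type and 15.9 and 16.3 in mutants. The members and lists were chosen with earlier results of these data known. Genes were named as those called (at most 6 per role), the highest in each role, those too low to test and up to 4 of each other list; the other members are given so that all are accounted for, and other genes were named after their values were seen.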

Additional observations from a re-analysis of the deposited data

How the results depend on the processing

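Without the mean-variance trend, limma called 578 genes higher and 429 lower over all genes, against 1053 and 820, and among the lists it called 1 mitotic gene higher (cenpp), 0 G2/M genes outside the name pattern higher and 1 lower, 14 replication genes higher, 4 genes of G1 and exit higher and 0 lower, and 0 APC/C subunits in either direction. DESeq2 called 622 and 409 over all genes, 2 and 1 of the outside G2/M genes, 3 and 1 of the G1 and exit genes and 0 APC/C subunits lower. Equal totals gave 1306 lower calls over all genes, 797 higher, 1 mitotic gene lower (ccnb1), 2 transport kinesins lower, and 2 higher and 4 lower outside G2/M genes. Of the outside G2/M genes, edgeR called 3 higher and 1 lower, and quantile normalization 3 and 1. A filter at a mean of 20 gave 6 higher and 1 lower of 41 tested. Over all genes edgeR called 1069 higher and 810 lower, quantile normalization 977 and 827, and the filter 861 and 700 of 5873. Quantile normalization gave 6 higher and 1 lower G1 or exit genes. Leaving out 1 library in turn gave 779 to 978 higher and 590 to 671 lower calls over all genes. The same step gave 0 to 3 higher and 0 to 1 lower mitotic genes, 0 to 1 lower transport kinesins and 0 to 1 lower other members. It gave 1 to 6 higher and 1 to 2 lower outside G2/M genes, 21 to 24 higher replication genes, 3 to 6 higher and 0 to 1 lower G1 or exit genes, and 0 to 1 lower APC/C subunits. Without ribosomal protein genes in the total, the mitotic share was 0.3754% in wild type and 0.3842% in mutants, a ratio of 1.02 in place of 0.971. As a share of all counts, the means with 1 library left out were 0.2473 to 0.2521% in wild type and 0.2338 to 0.2487% in mutants. The cause of these differences was not tested. Only 2 replicate numbers occur in both genotypes. Same-numbered libraries correlated at 0.0429 and -0.00952 in their deviations, beside -0.049 to 0.055 for libraries of different numbers. The main fit did not use the numbers as pairs, and whether same-numbered libraries were prepared together was not tested. A replicate block called 898 higher and 699 lower genes, 0 mitotic genes and 1 lower G1 or exit gene. Its median difference was 0.01 over the mitotic genes and -0.02 over the transport kinesins. In that fit wild type replicate 4 and mutant replicate 2 do not inform the difference, since no library of the other genotype has their number. The other alternatives kept each count within 1.5 times. Depth limits the 20 mitotic genes under 50 normalized counts most, and the genes too low to test cannot be compared at this depth.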
